A study of Danio rerio with 8 samples.

Results

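The anterior trunk of foxc1a mutant zebrafish embryos was compared with that of heterozygous controls, using 4 of the 8 RNA-seq libraries of the study. Mutants (MUT) carried the p162 allele of foxc1a on both chromosomes, and the controls (SIB) carried it on one chromosome according to the genotype labels, although the design text describes them as wild type. Anterior pieces (AS) spanned somitic segments 1 to 6, and the other 4 libraries came from posterior pieces (PS), segments 7 to about 12. All embryos were 38 to 40 hours old, were raised at 28 °C without further treatment, and lost head and yolk before RNA was taken. Each group held 2 libraries, called replicate 1 where the title has no number and replicate 3 where it ends in 3, and library pairs below are given in that order. The labels do not say how many embryos a library pooled or whether the replicates were separate clutches, so p-values here measure the spread between these libraries, which may be technical.

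Foxc1 proteins are forkhead transcription factors that are made in paraxial mesoderm, head mesenchyme and developing vessels, and zebrafish has a pair of them, foxc1a and foxc1b. Somites give rise to fast and slow muscle fibres, to sclerotome, which forms the skeleton and tendon cells, and to migrating precursors of fin muscle. Spinal motor axons cross the anterior somites on their way to the pectoral fin and steer by ligands and receptors such as ephrins, semaphorins, Slits and netrins. The study asked how foxc1a acts in the development of this fin-specific nerve supply.

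Levels are given in RPKM (read density corrected for the length of each transcript and for library size), taken back from the deposited log2(RPKM + 1) values, and differences are MUT_AS minus SIB_AS on the log2(RPKM + 1) scale, which understates the ratio of low transcripts. MUT_AS replicate 3 is a shallow library. It lists 17.5% of transcripts at 0, against 4.69% in MUT_AS replicate 1, 5.12% and 8.01% in SIB_AS, and 4.59 to 7.72% in the posterior libraries. Its nonzero values begin higher as well, with a 5th percentile of 0.579 RPKM against 0.0701 in MUT_AS replicate 1 and 0.0744 and 0.138 in SIB_AS. The spread between replicates was wide in the mutants, with an SD of 0.36 on the log2 scale over all tested transcripts, against 0.18 in SIB_AS. It was wide among abundant transcripts too, at 0.32 against 0.18 from 100 RPKM up, and its cause was not tested. The dissection left some tissue from outside the somites in every library. Cardiac myosin light chain myl7 stood at 15.4 and 0 RPKM in MUT_AS and 13.03 and 0.431 RPKM in SIB_AS, so that heart sarcomere genes follow the title number rather than the genotype. The insulin gene ins stood at 41.6 and 31.7 RPKM and 56.7 and 67.8 RPKM, whereas the defining exocrine pancreas gene ctrb1 was listed at 0 in all 4 libraries and the liver gene fabp10a in 3 of them. Other genes of liver and gut were present in all 4 libraries, among them apoa4, at 38.1 and 36.1 RPKM in MUT_AS and 104 and 83.4 RPKM in SIB_AS. The defining muscle genes of somites were abundant in all 4, with the skeletal actin actc1b at 5202 and 4695 RPKM in MUT_AS and 6752 and 8474 RPKM in SIB_AS.

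The mutated gene itself was transcribed to a similar level in mutants and controls. foxc1a stood at 19.3 and 16.3 RPKM in MUT_AS and 18.1 and 16.3 RPKM in SIB_AS. The ranges overlap, and the log2 difference was 0.05 ± 0.16 (SE; limma adjusted p = 0.934), so its RNA level gives no check of the genotypes. The paralog foxc1b stood at 16.1 and 14.8 RPKM in MUT_AS and 13.02 and 11.4 RPKM in SIB_AS. Both mutant libraries lay above both controls, with a log2 difference of 0.32 ± 0.15 that did not pass the threshold (limma adjusted p = 0.454).

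Of 10889 transcripts tested, 5 (0.0459%) passed an adjusted p of 0.05 in limma, 1 higher (0.00918%) and 4 lower (0.0367%) in the mutants, and 1270 (11.7%) had an unadjusted p under 0.05. The 4 lower transcripts were star, tnni2b.2, cldn11a and cthrc1a, which act in steroid synthesis, fast muscle contraction, tight junctions and secreted matrix. In bulk tissue, fewer cells of a type and less RNA per cell cannot be told apart, here or below. No transcript was at 0 in both libraries of one genotype and at 1 RPKM or more in both of the other.

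The gene with the smallest p was star, whose protein moves cholesterol into mitochondria, the entry step of steroid hormone synthesis. It stood at 0.558 and 0.6502 RPKM in MUT_AS and at 7.94 and 11.5 RPKM in SIB_AS. The mutant pair lies far under the control pair, and the group means differ by a ratio of 16.1. The value of the shallow MUT_AS replicate 3 is close to 0.579 RPKM, the 5th percentile of its nonzero values, so the ratio is imprecise. The log2 difference was -2.72 ± 0.21 (limma adjusted p = 0.00141). In posterior pieces star stood at 0.547 and 0.6204 RPKM in MUT_PS and 1.53 and 1.11 RPKM in SIB_PS, with both mutants under both controls at levels well below those of SIB_AS (log2 difference -0.55; the limma adjusted p was not under the threshold).

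tnni2b.2 encodes a fast skeletal troponin I, the inhibitory subunit that keeps thin filaments off until calcium rises. It stood at 10.9 and 7.54 RPKM in MUT_AS and 55.7 and 83.4 RPKM in SIB_AS. The groups are far apart, by a ratio of 7.52 in their means and a log2 difference of -2.78 ± 0.25 (limma adjusted p = 0.00325). Posterior values were 4.71 and 6.85 RPKM in MUT_PS and 21.1 and 17.6 RPKM in SIB_PS, again with both mutants under both controls (log2 difference -1.60, limma adjusted p = 0.15). Its neighbour in name, tnni2b.1, which is the more abundant, stood at 207 and 227 RPKM in MUT_AS and 403 and 331 RPKM in SIB_AS and did not pass (log2 difference -0.75, limma adjusted p = 0.293). How reads were divided between such close copies is not stated, so the split between them is uncertain.

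cldn11a encodes a claudin, a membrane protein of tight junctions. It stood at 0.3301 and 0 RPKM in MUT_AS and 5.31 and 4.46 RPKM in SIB_AS, where 0 in the shallow library is a listed value and not a measured absence. The log2 difference was -2.35 ± 0.22 (limma adjusted p = 0.00371). In posterior pieces it stood at 0.109 and 0.372 RPKM in mutants and 0.444 and 0.216 RPKM in controls, which overlap. Its paralog cldn11b, at 8.27 and 7.69 RPKM in MUT_AS and 7.55 and 8.501 RPKM in SIB_AS, overlapped between genotypes.

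cthrc1a encodes a secreted protein with a collagen triple helix repeat. It stood at 11.1 and 11.1 RPKM in MUT_AS and 29.7 and 26.5 RPKM in SIB_AS, nearly equal within each genotype and well apart between them (log2 difference -1.27 ± 0.15, limma adjusted p = 0.0213). In posterior pieces it stood at 14.2 and 12.7 RPKM in mutants and 18.4 and 19.8 RPKM in controls, without overlap. The transcript that rose was zgc:86725, an actin gene named acte1 in RefSeq. It stood at 38.2 and 46.9 RPKM in MUT_AS and 14.98 and 16.3 RPKM in SIB_AS, with both mutants above both controls (log2 difference 1.38 ± 0.17, limma adjusted p = 0.0296). Posterior levels were 33.9 and 43.2 RPKM in mutants and 27.4 and 28.2 RPKM in controls. As a member of a family of near-identical sequences, its reads may be shared with other actins.

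**Figure D1:**
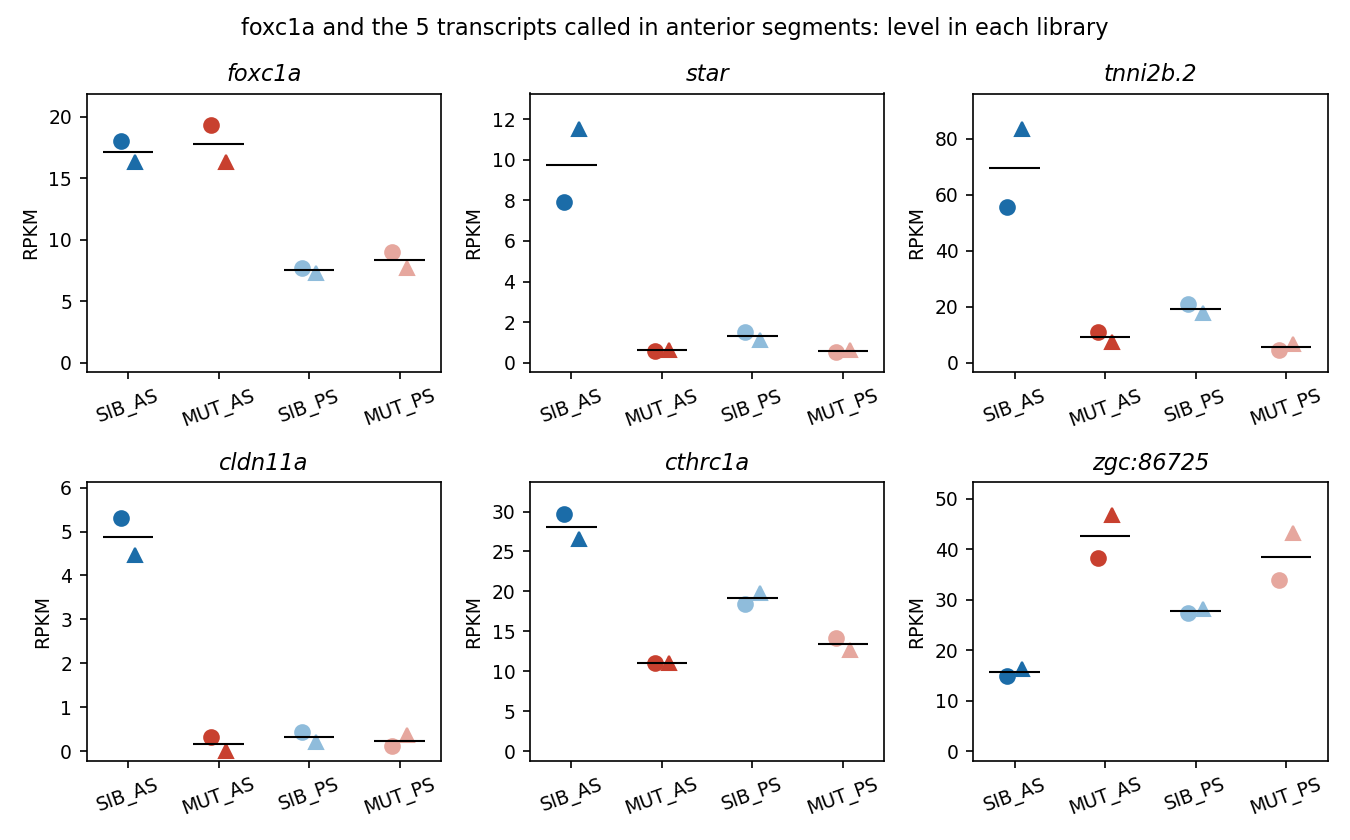
Level in RPKM (linear y axis) of foxc1a and the 5 called transcripts in each of the 8 libraries, with circles for replicate 1, triangles for replicate 3 and a line at each group mean. foxc1a overlaps between genotypes in AS, whereas star, tnni2b.2, cldn11a and cthrc1a are lower and zgc:86725 is higher in both MUT_AS libraries than in both SIB_AS libraries.

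Whether these differences belong to the anterior segments was tested by the interaction of genotype and region, which called 0 of 10889 transcripts (0%) in limma, with 298 (2.74%) at an unadjusted p under 0.05. The interaction was -2.17 ± 0.29 on the log2 scale for star and -2.24 ± 0.32 for cldn11a, each at a limma adjusted p of 0.119. For tnni2b.2, cthrc1a and zgc:86725 the limma adjusted p was 0.999. With no filter on low values the limma adjusted p was 0.513 for star and 0.513 for cldn11a, and with group weights 0.0806 and 0.0649. Without MUT_AS replicate 1 or replicate 3 the interaction was -2.133 or -2.216 for star and -2.45 or -2.039 for cldn11a. Without SIB_AS replicate 1 or replicate 3 it was -2.417 or -1.932 for star and -2.141 or -2.348 for cldn11a. Each fit with a library left out has 1 library in a group, so its p-value is not given. The same comparison in posterior pieces called 0 transcripts (0%), with 291 (2.67%) at an unadjusted p under 0.05.

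The calls lean on the fit, which uses 1 spread for groups whose spreads differ and, on data simulated with those spreads, made false calls above its nominal rate. Without MUT_AS replicate 1 there were 559 higher and 546 lower calls, and without MUT_AS replicate 3 there were 22 and 56. Each of these fits assumes that the lone mutant library varies like the other groups. Without any of the other 6 libraries there were 0 higher and 2 or 3 lower calls, and in a fit on the 4 AS libraries alone there were 0 calls in limma (687 at an unadjusted p under 0.05, smallest adjusted p 0.0551). Of the alternatives that kept all libraries of both AS groups, the fit on the 4 AS libraries alone was the only one in which star and tnni2b.2 were tested and not called. cldn11a also lost its call with a pseudocount of 0.1 RPKM (limma adjusted p = 0.117). With no filter on low values the limma adjusted p was 0.0654 for cthrc1a and 0.151 for zgc:86725, and with group weights 0.0768 for each. With median scaling zgc:86725 lost its call as well (limma adjusted p = 0.0891). With a library left out, the log2 difference ran from -2.553 to -2.142 for cldn11a, from -1.346 to -1.189 for cthrc1a and from 1.239 to 1.528 for zgc:86725. Those fits have 1 library in a group, so whether they called these transcripts is not counted.

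Beyond the called transcripts, both mutant libraries lay above both controls for 2940 transcripts (27.0%) and below both for 1275 (11.7%), 4215 in all (38.7%), and the median log2 difference over all tested transcripts was 0.08, with a higher mean in MUT_AS for 62.1% of them. These shares are the background for the gene lists that follow, none of which was tested as a list.

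Genes of fast muscle, and of contraction and calcium handling outside the slow fibre list, lay lower in the mutants almost throughout. Only the fast myosin and fast troponin lists are restricted to fast fibres, and 8 of 8 and 7 of 8 tested members there had a lower mean. In 4 lists of fast myosins, fast troponins, thin filament and Z disc proteins, and calcium handling, 59 of 61 tested members had a lower mean in MUT_AS. Both mutant libraries lay under both controls for 45 of them (73.8%, against 11.7% of all transcripts) and above both for 1, while 1, tnni2b.2, was called. Their median log2 difference was -0.49, moving to -0.66 when SIB_AS replicate 1 was left out and to -0.31 when SIB_AS replicate 3 was. Together they held 5.45% and 6.74% of all RPKM in MUT_AS and 8.78% and 11.1% in SIB_AS. In posterior pieces the shares were 18.7% in both MUT_PS libraries and 20.3% and 24.3% in SIB_PS, with a median difference of -0.15.

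Among the motor proteins of the thick filament, the fast myosin heavy chain myhz1.2 stood at 146 and 183 RPKM in MUT_AS and 364 and 451 RPKM in SIB_AS. The groups do not overlap, and the log2 difference was -1.30 ± 0.20, short of the threshold (limma adjusted p = 0.0946). Dropping a mutant AS library changed the difference to -1.14 (replicate 1 dropped) or -1.463 (replicate 3 dropped). Dropping a control AS library changed it to -1.457 (replicate 1 dropped) or -1.146 (replicate 3 dropped). These fits rest on 1 library in a group, so only their effect sizes are given. The limma adjusted p was 0.25 with group weights, 0.334 with no filter on low values and 0.415 in the 4 AS libraries alone. With the replicate number as a block it was 0.0178. The fast regulatory light chain mylpfb stood at 980.5 and 1077 RPKM in MUT_AS and 1653 and 2017 RPKM in SIB_AS, also without overlap (log2 difference -0.83, limma adjusted p = 0.199). Of the 8 myosins tested, 7 had both mutants under both controls, against 11.7% of all transcripts. The exception myhz2, at 8.33 and 8.32 RPKM against 9.58 and 7.69 RPKM, overlapped. The genes myhz1.1 and myhz1.2 are near-identical copies whose reads may be shared, so they may not count as separate members.

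On the thin filament, the fast troponin T gene tnnt3b stood at 1045 and 932 RPKM in MUT_AS and 1430.0 and 1723 RPKM in SIB_AS, and the troponin I gene tnni2a.4 at 1066 and 1216 RPKM and 1611 and 2053 RPKM. Neither overlaps between genotypes and neither passed. In the list of thin filament and Z disc proteins, all 21 tested members had a lower mean, with a median of -0.45. Both mutants lay under both controls for 16 of them, against 11.7% of all transcripts. The calcineurin-binding Z disc gene myoz1a had the lowest value, at 8.69 and 7.48 RPKM against 13.4 and 21 RPKM (log2 difference -0.97, limma adjusted p = 0.257), and the Z disc cross-linker actn3b stood at 54.3 and 77.7 RPKM against 105 and 129 RPKM. The chaperone gene unc45b and the methyltransferase gene smyd1b, which serve myosin assembly, overlapped between genotypes.

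In calcium handling, the parvalbumin pvalb1, a calcium buffer of fast fibres, stood at 2407 and 3481 RPKM in MUT_AS and 3813 and 5818 RPKM in SIB_AS. Calsequestrin casq1a, which stores calcium in the sarcoplasmic reticulum, stood at 27.97 and 48.1 RPKM and 56.6 and 70.8 RPKM. Both are lower in both mutants and neither passed. Within the calcium handling list the exception was pvalb4, at 361 and 369.6 RPKM in MUT_AS and 233 and 297 RPKM in SIB_AS. Its mutant libraries both lay above both controls. Another parvalbumin gene, pvalb8, was not a member of that list. It also had both mutants above both controls and did not pass (log2 difference 0.91, limma adjusted p = 0.199). In posterior pieces pvalb8 overlapped between genotypes. At the neuromuscular junction, the acetylcholine receptor subunit chrnd stood at 13.5 and 10.6 RPKM against 15.08 and 18.7 RPKM, under both controls, whereas its clustering factor rapsn overlapped at 9.67 and 7.31 RPKM against 8.92 and 9.56 RPKM.

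Slow fibre genes lay mostly on the other side. Of 10 tested, 8 (80.0%, against 62.1% of all transcripts) had a higher mean in MUT_AS, and none was called. Both mutants lay above both controls for 6 and below both for 1, against 27.0% and 11.7% of all transcripts. The slow myosin light chain myl10 stood at 1050.0 and 819 RPKM in MUT_AS and 638 and 588 RPKM in SIB_AS (log2 difference 0.60, limma adjusted p = 0.31). The slow troponin C gene tnnc1b stood at 227 and 198 RPKM and 155 and 147 RPKM, and the slow myosin heavy chain smyhc1 overlapped, at 129 and 96.9 RPKM and 97.9 and 102 RPKM. The member with both mutants under both controls was myoz1b, at 138 and 120.2 RPKM against 180.4 and 239 RPKM. Its paralog myoz1a, counted in the Z disc list, was lower too (log2 difference -0.97), and whether myoz1b marks slow fibres was not tested. The slow list held 0.293% and 0.271% of RPKM in MUT_AS and 0.242% and 0.235% in SIB_AS. Of its members tnni1b also belongs to the heart list, and it follows the title number with 10.9 and 2.64 RPKM against 5.57 and 0.944 RPKM.

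Muscle energy genes were mixed. Of 24 tested, 7 (29.2%, against 62.1% of all transcripts) had a higher and 17 a lower mean. Both mutants lay above both controls for 2 and under both for 7, against 27.0% and 11.7% of all transcripts. The muscle creatine kinase ckmb stood at 1999 and 2252 RPKM in MUT_AS and 2934 and 3835 RPKM in SIB_AS. The editing-enzyme relative apobec2a stood at 19.7 and 15.9 RPKM against 32.7 and 35.3 RPKM (log2 difference -0.90, limma adjusted p = 0.216). Phosphoglucose isomerase gpia went the other way, at 32.2 and 45.3 RPKM against 19.4 and 25.4 RPKM. Among 24 myogenic regulators and precursor genes, 13 (54.2%, against 62.1% of all transcripts) had a higher and 11 a lower mean, and none was called. Both mutants lay above both controls for 7 and under both for 3, against 27.0% and 11.7% of all transcripts. The determination factor myod1 overlapped at 6.29 and 11.8 RPKM and 11.1 and 11.7 RPKM, and so did myog at 7.08 and 11.5 RPKM and 6.83 and 8.82 RPKM. Some genes of the precursor state lay above both controls, with pax3a at 15.5 and 11.8 RPKM against 8.805 and 10.4 RPKM, myf5 at 10.1 and 13.1 RPKM against 7.996 and 9.099 RPKM, and met, a receptor of migrating fin muscle precursors, at 4.14 and 3.96 RPKM against 1.93 and 3.19 RPKM. The precursor genes pax7a, lbx1a and lbx1b overlapped.

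**Figure D2:**
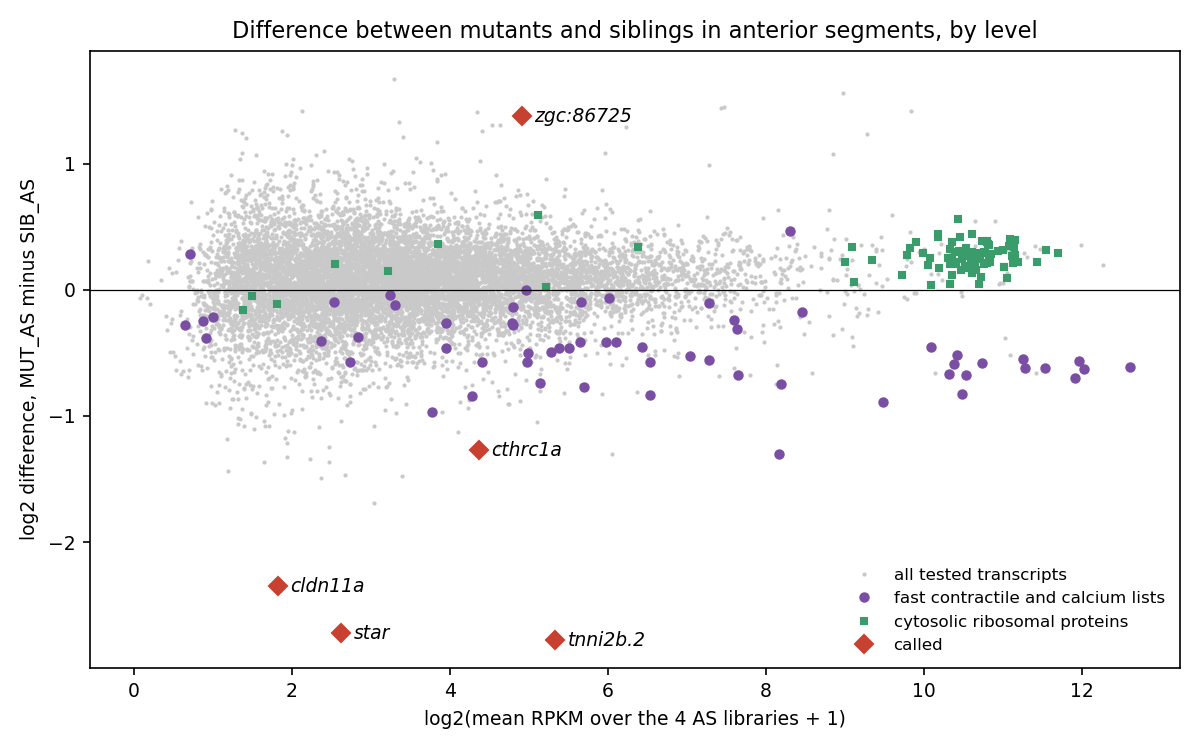
Log2 difference MUT_AS minus SIB_AS (y axis) against log2 of the mean RPKM of the 4 AS libraries plus 1 (x axis) for the 10889 tested transcripts, with the fast contractile and calcium lists, the cytosolic ribosomal proteins and the 5 called transcripts marked. Of the 61 genes of the contractile and calcium lists, not all of them restricted to fast fibres, 59 lie below 0. Of the 89 ribosomal protein genes, 86 lie above it.

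Of 30 tested genes that fold and crosslink collagen, 21 (70.0%, against 62.1% of all transcripts) had a higher mean in MUT_AS, and none was called. Both mutants lay above both controls for 14 and under both for 5, against 27.0% and 11.7% of all transcripts. The median was 0.23 (0.14 without SIB_AS replicate 1). The collagen chaperone serpinh1b (Hsp47) stood at 96.8 and 115 RPKM in MUT_AS and 45.9 and 39.4 RPKM in SIB_AS. The groups are clearly separate, with a log2 difference of 1.29 ± 0.21 that did not pass (limma adjusted p = 0.108). In posterior pieces serpinh1b stood at 184 and 123.2 RPKM in MUT_PS and 52.3 and 46 RPKM in SIB_PS (log2 difference 1.60, limma adjusted p = 0.0937). The prolyl hydroxylase subunit p4ha2 stood at 15.03 and 19.97 RPKM in MUT_AS and 7.71 and 10.4 RPKM in SIB_AS, and p4ha1b at 14.2 and 45.6 RPKM and 7.46 and 13.6 RPKM. The mutant values of p4ha1b are far from each other, and the lower of them only just exceeds the upper control. The enzymes fkbp9, fkbp14 and p4ha1a overlapped.

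Collagen chains, the substrates of these enzymes, lay on both sides. Of 20 tested, 11 (55.0%, against 62.1% of all transcripts) had a higher and 9 a lower mean, and none was called. The largest difference was that of zgc:194937, named col9a1a in RefSeq, at 6.48 and 3.03 RPKM in MUT_AS against 16.1 and 12.6 RPKM in SIB_AS (log2 difference -1.48, limma adjusted p = 0.257). Milder differences were those of col18a1, at 57.9 and 60.7 RPKM against 39.9 and 47.1 RPKM, and col11a1b, at 13.2 and 13.2 RPKM against 18.4 and 17.8 RPKM. Among 32 other secreted matrix genes 16 (50.0%, against 62.1% of all transcripts) had a higher and 16 a lower mean, and cthrc1a was the one called. Both mutants lay above both controls for 6 and under both for 8, against 27.0% and 11.7% of all transcripts. The 8 included the tenascin tnw, at 89.97 and 82.5 RPKM against 111 and 129.9 RPKM. Also among them was the proteoglycan vcanb, at 6.31 and 5.604 RPKM against 10.4 and 7.48 RPKM. Both proteins surround migrating cells and axons. The microfibril gene mfap2 stood at 96.4 and 105 RPKM in MUT_AS against 70.1 and 65.3 RPKM in SIB_AS. In sclerotome, dermomyotome and tendon genes, 10 of 21 had a higher mean and the median was -0.03 (0.10 without MUT_AS replicate 3). The helix-loop-helix gene twist3 had the highest difference there, at 9.64 and 11.3 RPKM in MUT_AS and 6.204 and 4.62 RPKM in SIB_AS (log2 difference 0.85, limma adjusted p = 0.257), and the sclerotome gene pax9 stood at 4.09 and 4.33 RPKM and 4.55 and 5.11 RPKM.

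Among co-chaperones of Hsp70, dnajb1b stood at 19.5 and 18.6 RPKM in MUT_AS and 10.3 and 8.94 RPKM in SIB_AS (log2 difference 0.92, limma adjusted p = 0.216), and dnajb1a at 10.6 and 10.6 RPKM and 6.06 and 6.18 RPKM. The inducible gene hsp70 itself overlapped at 4.26 and 3.52 RPKM and 3.58 and 2.75 RPKM. Of 72 heat shock and DnaJ genes 44 (61.1%, against 62.1% of all transcripts) had a higher mean, and none was called. Both mutants lay above both controls for 23 and under both for 7, against 27.0% and 11.7% of all transcripts. The muscle small heat shock gene hspb8 was among the lower ones, at 11.4 and 11.4 RPKM against 14.7 and 20.3 RPKM.

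**Figure D3:**
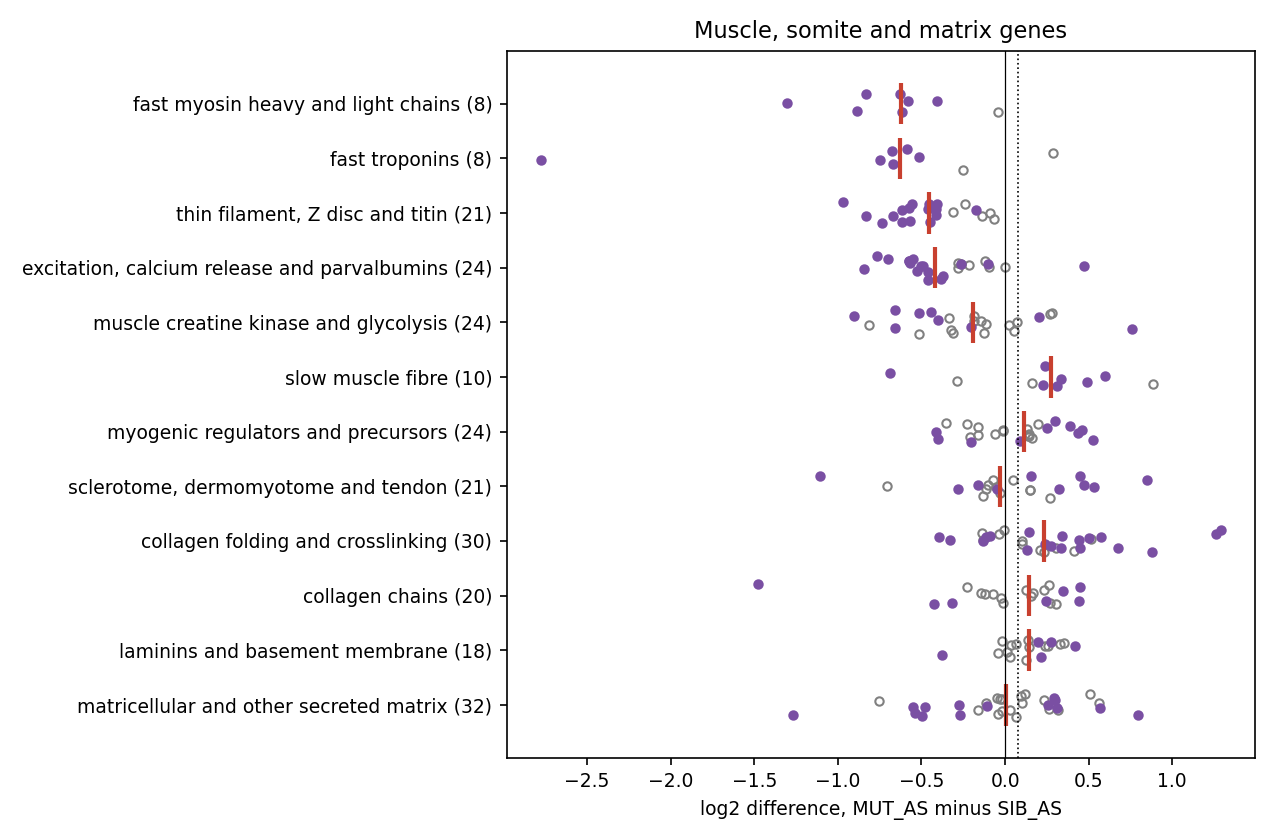
Log2 difference MUT_AS minus SIB_AS (x axis) of each tested member of 12 muscle, somite and matrix lists (number tested in brackets), filled where the 2 mutant and 2 control libraries do not overlap and open where they do. Red bars are list medians and the dotted line is the median of all transcripts, 0.08. The fast myosin, fast troponin, thin filament and calcium lists lie to the left, from -0.42 to -0.63. The slow list lies to the right at 0.28. Without SIB_AS replicate 3 the calcium and parvalbumin list, at -0.42, moved to -0.15.

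star was the member called of the list of steroid synthesis and interrenal genes (the interrenal is the adrenal cortex of fish). The other 11 tested members, most of them made in many tissues, had differences between -0.07 (npc1, a cholesterol transporter) and 0.54 (hsd3b7). Of 9 members below the filter of 1 RPKM, which were not tested, 5 had both mutants under both controls, 4 overlapped and 0 had both mutants above. The 4 that overlapped were cyp11a1, hsd3b1, nr5a1a and nr0b1. Of these, cyp11a1 stood at 0.0546 and 0 RPKM in MUT_AS and 0.0615 and 0.0404 RPKM in SIB_AS. The values of nr5a1a were 0.19 and 0.655 RPKM in MUT_AS and 0.502 and 0.562 RPKM in SIB_AS. Among all transcripts below the filter, both mutants lay under both controls in 17.0%. The adrenodoxin gene fdx1b, the electron donor of mitochondrial steroid enzymes, stood at 0.205 and 0 RPKM in MUT_AS and 1.05 and 1.36 RPKM in SIB_AS. The steroid hydroxylase genes stood at 0.0468 and 0 RPKM against 0.614 and 1.19 RPKM for cyp17a2 and at 0.192 and 0.417 RPKM against 0.572 and 0.762 RPKM for cyp11c1. The corticotropin receptor mc2r was listed at 0 in both mutants and at 0.0881 and 0.0965 RPKM in SIB_AS, and nr5a1b at 0 in both mutants and 0.0105 and 0.104 RPKM in SIB_AS. These 2 genes and cyp17a2 were near or at 0 in the posterior libraries. In posterior pieces fdx1b overlapped between genotypes. All of these mutant levels except the 0.655 RPKM of nr5a1a lie under 0.579 RPKM. That is the 5th percentile of nonzero values of the shallow MUT_AS replicate 3, so a value of 0 there does not show absence.

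Among 29 claudin and tight junction genes 18 (62.1%, the same share as of all transcripts) had a higher mean and 11 a lower one, and cldn11a was the one called. The epithelial claudin cldnb stood at 39.7 and 44.5 RPKM in MUT_AS and 28.5 and 26.9 RPKM in SIB_AS, and the junction adhesion gene jam2b at 23.2 and 18.7 RPKM and 14.4 and 13.2 RPKM, both above both controls. The blood-vessel claudin cldn5b stood at 5.2 and 9.004 RPKM against 9.37 and 9.12 RPKM, under both controls. Beside these, the summed periderm and epidermis list held 1.83% and 2.94% of RPKM in MUT_AS and 1.61% and 2.08% in SIB_AS, and its part in the epithelial values was not tested.

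None of the genes that guide axons was called. In 7 families of guidance ligands and receptors, 36 of 60 tested members had a higher mean and 24 a lower one. Both mutants lay above both controls for 21 (35.0%, against 27.0% of all transcripts) and under both for 8 (13.3%, against 11.7%). Their median was 0.10, near that of all transcripts, moving to -0.03 when MUT_AS replicate 1 was left out and to 0.20 when MUT_AS replicate 3 was. Of 97 tested genes that the authors' deposited table marks with the axon guidance term, 29 lay above and 15 under both controls, with a median of 0.03 (-0.06 without MUT_AS replicate 1 and 0.16 without MUT_AS replicate 3).

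Among the ligands, the membrane-bound efnb1 stood at 22.4 and 19.3 RPKM in MUT_AS and 14.5 and 14.1 RPKM in SIB_AS (log2 difference 0.51, limma adjusted p = 0.309). The glycolipid-anchored efna2 went the other way, at 6.19 and 3.94 RPKM and 8.64 and 7.87 RPKM (log2 difference -0.63, limma adjusted p = 0.325). Both are cleanly separated between genotypes in AS. In posterior pieces efnb1 overlapped, and efna2 stood at 1.083 and 1.11 RPKM in MUT_PS and 1.34 and 1.14 RPKM in SIB_PS. The secreted semaphorin sema3gb stood at 14.1 and 14.4 RPKM against 8.58 and 12.3 RPKM, and sema3e at 4.09 and 3.25 RPKM against 4.42 and 5.66 RPKM. The attractant netrin gene ntn1a stood at 4.21 and 7.24 RPKM against 10.02 and 7.61 RPKM, where its lower mutant value comes from replicate 1, and its copy ntn1b overlapped at 11.3 and 5.01 RPKM against 7.85 and 9.19 RPKM. Of the Slit repellents, slit1a stood at 11.8 and 13.6 RPKM against 9.93 and 11.04 RPKM, and slit1b, slit2 and slit3 overlapped. The chemokine cxcl12a, which draws migrating cells and axons, stood at 25.5 and 20.1 RPKM in MUT_AS and 31.9 and 30.3 RPKM in SIB_AS, under both controls.

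Among the receptors, ephb4a, which binds ephrin-B ligands, stood at 19.6 and 20.8 RPKM in MUT_AS and 14.9 and 16.2 RPKM in SIB_AS (log2 difference 0.35). The semaphorin receptor plxnd1 stood at 2.46 and 3.95 RPKM and 1.66 and 2.06 RPKM (log2 difference 0.54). The Slit receptors robo1, robo2 and robo3 all overlapped, with differences between -0.01 and 0.04, and so did the netrin receptors dcc, at 2.34 and 3.65 RPKM against 2.196 and 3.78 RPKM, and unc5b. Downstream of semaphorin receptors, 4 of 6 collapsin response mediator genes had both mutants under both controls and 1 had both above. The shares of all transcripts were 11.7% and 27.0%. dpysl5a stood at 17.98 and 22.1 RPKM in MUT_AS and 29.4 and 27.3 RPKM in SIB_AS, dpysl5b at 2.597 and 3.07 RPKM and 4.54 and 4.18 RPKM, and the broadly made dpysl2b, the one above, at 49.3 and 52.3 RPKM and 49.2 and 47.4 RPKM.

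Genes of motor neurons, which send out the fin nerves, were detected in both genotypes. Of 22 motor neuron genes 14 had a lower and 8 a higher mean (36.4%, against 62.1% of all transcripts), and none was called. Both mutants lay under both controls for 5 and above both for 2, against 11.7% and 27.0% of all transcripts. The motor neuron homeobox gene isl1 stood at 22.02 and 21.01 RPKM in MUT_AS and 22.04 and 22.1 RPKM in SIB_AS, and mnx1 overlapped at 145 and 102 RPKM and 111 and 84.6 RPKM. The progenitor gene olig2 stood at 7.38 and 7.46 RPKM against 11.8 and 11.2 RPKM (log2 difference -0.56, limma adjusted p = 0.275), tight within each genotype and apart between them. foxp1b, whose mouse counterpart sets the limb-level motor columns, stood at 9.39 and 12.6 RPKM against 6.41 and 8.22 RPKM, above both controls, and the intermediate filament gene prph at 4.52 and 3.6 RPKM against 5.78 and 5.504 RPKM, under both. Beside these, the summed neuron list held 0.205% and 0.183% of RPKM in MUT_AS and 0.242% and 0.217% in SIB_AS. The summed spinal progenitor list held 0.185% and 0.198% in MUT_AS and 0.245% and 0.204% in SIB_AS, and the part of either in the values above was not tested.

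**Figure D4:**
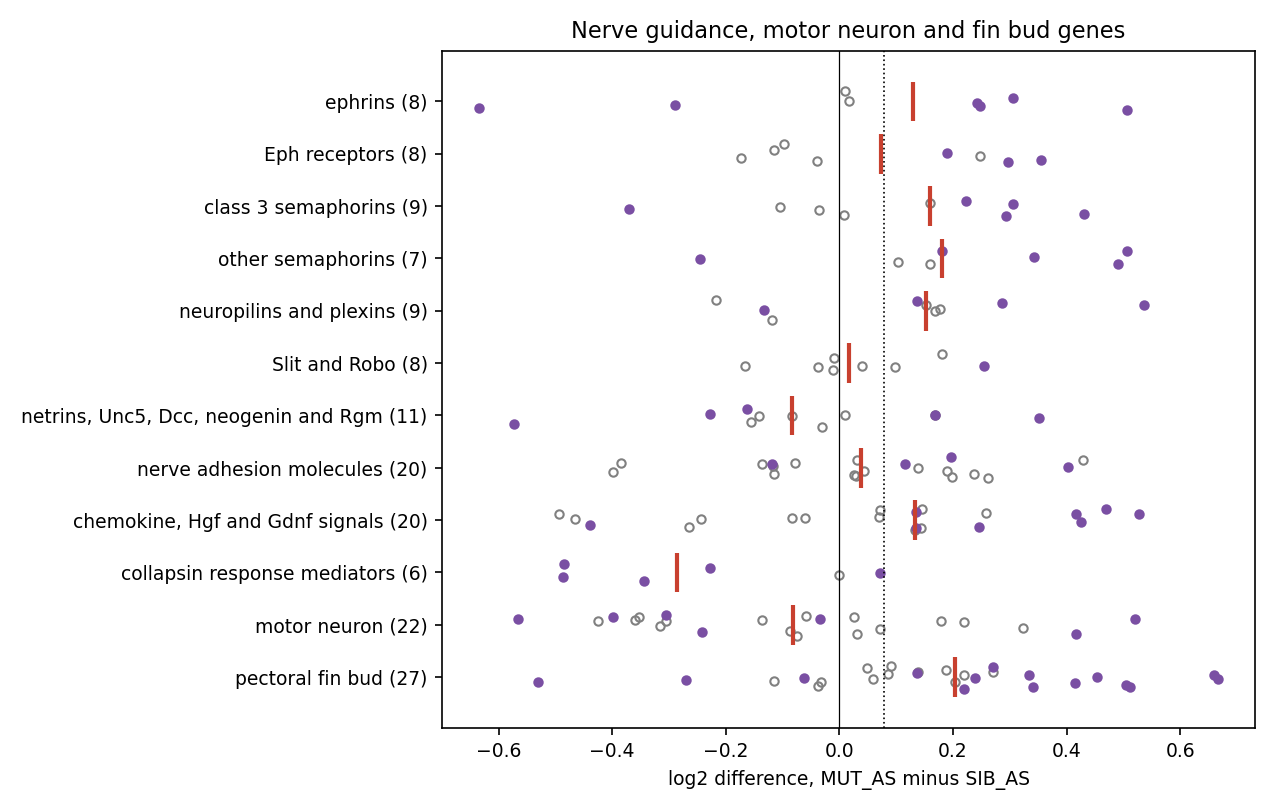
Log2 difference MUT_AS minus SIB_AS (x axis) of each tested member of 12 nerve guidance, motor neuron and fin bud lists (number tested in brackets), filled where the mutant and control libraries do not overlap and open where they do; red bars are list medians and the dotted line is the median of all transcripts, 0.08. The collapsin response mediators have the lowest median, -0.28, and the pectoral fin bud genes the highest, 0.20.

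Of 27 pectoral fin bud genes 21 (77.8%, against 62.1% of all transcripts) had a higher mean, and none was called. Both mutants lay above both controls for 12 and under both for 3, against 27.0% and 11.7% of all transcripts. The fin bud initiator tbx5a stood at 3.23 and 3.55 RPKM in MUT_AS and 1.82 and 2.35 RPKM in SIB_AS, its downstream signal fgf10a at 7.37 and 6.604 RPKM and 5.94 and 4.16 RPKM, and shha, the posterior organiser, at 19.7 and 20.2 RPKM and 17.1 and 16.8 RPKM. All lie above both controls, and limma adjusted p-values for tbx5a and fgf10a were 0.351 and 0.465. shha is also a marker of the notochord, so its level in bulk tissue cannot be assigned to the fin bud. The mesenchymal T-box gene tbx15 was the clearest exception, at 9.02 and 8.24 RPKM against 13.1 and 12.7 RPKM (log2 difference -0.53, limma adjusted p = 0.323).

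Retinoic acid patterns the anterior trunk and the fin field. The enzyme cyp26a1, which degrades it, stood at 26.3 and 22.03 RPKM in MUT_AS and 13.9 and 13.3 RPKM in SIB_AS (log2 difference 0.78 ± 0.16, limma adjusted p = 0.223). In posterior pieces it was the controls that stood above, with 5.18 and 6.29 RPKM in MUT_PS and 6.97 and 7.15 RPKM in SIB_PS, and the limma adjusted p of the interaction was 0.857. The related enzymes cyp26b1 and cyp26c1 overlapped in AS, and the synthesising enzyme aldh1a2 stood at 27.7 and 27.7 RPKM against 19.9 and 25.8 RPKM. The binding protein crabp2a stood at 5.59 and 9.39 RPKM against 12.8 and 12.4 RPKM, under both controls, and crabp1b at 87.3 and 82.6 RPKM against 62.3 and 58.6 RPKM, above both.

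Hox genes set segment identity. In paralog groups 1 to 5, 15 of 18 had a higher mean in MUT_AS, with 9 above and 1 under both controls, and the median difference was 0.33 in AS (0.14 without SIB_AS replicate 3) and -0.08 in PS. In groups 9 to 13, 10 of 13 had a higher mean, with 8 above and 1 under both controls, and the median was 0.45 in AS (0.28 without MUT_AS replicate 3) and 0.32 in PS. Higher means made up 83.3% of groups 1 to 5 and 76.9% of groups 9 to 13, against 62.1% of all transcripts. Of all transcripts, 27.0% lay above and 11.7% under both controls in AS. None was called. hoxc5a stood at 43.1 and 43.4 RPKM in MUT_AS and 24.2 and 29.5 RPKM in SIB_AS, and at 3.55 and 4.11 RPKM in MUT_PS and 4.95 and 4.84 RPKM in SIB_PS. hoxb4a stood at 72.9 and 66.7 RPKM against 46.2 and 42.1 RPKM in AS and at 4.02 and 5.02 RPKM against 6.92 and 5.47 RPKM in PS. For both, the mutants lie above the controls in AS and under them in PS, and the interaction did not pass (limma adjusted p = 0.857 and 0.867). The more posterior gene hoxb9a stood at 75.1 and 77.03 RPKM in MUT_AS and 44.1 and 43.04 RPKM in SIB_AS (log2 difference 0.79 ± 0.15, limma adjusted p = 0.216), and its posterior libraries overlapped. In posterior pieces 2594 transcripts (23.8%) had both mutants above both controls and 972 (8.93%) had both under, 3566 in all (32.7%). Over the tested transcripts, 286 transcripts were apart between genotypes in opposite directions in AS and PS, and 1343 in the same direction.

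Of other signals, 36 of 46 Wnt genes (78.3%) and 16 of 19 Hedgehog genes (84.2%) had a higher mean, against 62.1% of all transcripts. Both mutants lay above both controls for 20 Wnt and 8 Hedgehog genes and under both for 2 and 0. Of all transcripts, 27.0% lay above and 11.7% under both controls. No gene of either list was called. The Wnt antagonist sfrp1a stood at 36.8 and 43.5 RPKM in MUT_AS and 24.3 and 23.9 RPKM in SIB_AS (log2 difference 0.71, limma adjusted p = 0.26). The Hedgehog co-receptor boc, which also serves axon guidance, stood at 58.02 and 48.9 RPKM and 38.3 and 36.3 RPKM. The segmentation list had 6 higher and 9 lower means among 15 genes. ripply1, a repressor that ends the segmentation programme as somites form, stood at 2.61 and 2.64 RPKM in MUT_AS and 5.55 and 5.104 RPKM in SIB_AS, tight within each genotype (log2 difference -0.80 ± 0.17, limma adjusted p = 0.257). The Notch target her15.2 stood at 5.61 and 15.5 RPKM against 22.4 and 21.3 RPKM, with its lowest value in MUT_AS replicate 1.

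The genes of the cytosolic ribosome lay higher in near unison. Of 89 ribosomal protein genes 86 (96.6%, against 62.1% of all transcripts) had a higher mean in MUT_AS, and none was called. Both mutants lay above both controls for 45 and under both for 2, against 27.0% and 11.7% of all transcripts. The large-subunit gene rpl36 stood at 1926 and 1405 RPKM in MUT_AS and 1127 and 1094 RPKM in SIB_AS. The list held 28.3% and 24.8% of RPKM in MUT_AS and 23.5% and 23.6% in SIB_AS. Its median difference of 0.26 moved to 0.06 when MUT_AS replicate 1 was left out and to 0.46 when MUT_AS replicate 3 was, so most of it rests on MUT_AS replicate 1.

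Tissues other than somite varied between the libraries too. Globin and heme genes differed between replicates of each genotype. The embryonic alpha globin hbae3 stood at 2106 and 598 RPKM in MUT_AS and 704 and 249 RPKM in SIB_AS, and the erythroid list held 0.958% and 0.362% of RPKM in MUT_AS and 0.396% and 0.157% in SIB_AS. Replicate 1 is the higher in each genotype, and the shares of the genotypes overlap. Of 19 erythroid genes tested, 18 (94.7%, against 62.1% of all transcripts) had a higher mean in MUT_AS, and none was called. Both mutants lay above both controls for 8 and under both for 0, against 27.0% and 11.7% of all transcripts. Their median difference was 0.92 (0.46 without MUT_AS replicate 1, 1.45 without MUT_AS replicate 3 and 0.59 without SIB_AS replicate 3). In posterior pieces the list held 1.53% and 0.511% of RPKM in MUT_PS and 0.303% and 0.244% in SIB_PS, which do not overlap. The lipoprotein gene apoa4 stood at 38.1 and 36.1 RPKM in MUT_AS and 104 and 83.4 RPKM in SIB_AS (log2 difference -1.30, limma adjusted p = 0.216). Of 21 tested liver, gut and pancreas genes, 5 (23.8%, against 62.1% of all transcripts) had a higher and 16 a lower mean. Both mutants lay under both controls for 7 and above both for 2, against 11.7% and 27.0% of all transcripts. That list held 0.418% and 0.363% of RPKM in MUT_AS and 0.580% and 0.501% in SIB_AS. The endocrine hormone genes ins and gcgb, the latter at 27.2 and 27.9 RPKM against 35.3 and 35.3 RPKM, lay under both controls, and the somatostatin gene sst2 lay above both, at 61.2 and 58.1 RPKM against 38.2 and 49.2 RPKM. Whether the lists of other tissues bear on the somite genes was not tested.

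**Figure D5:**
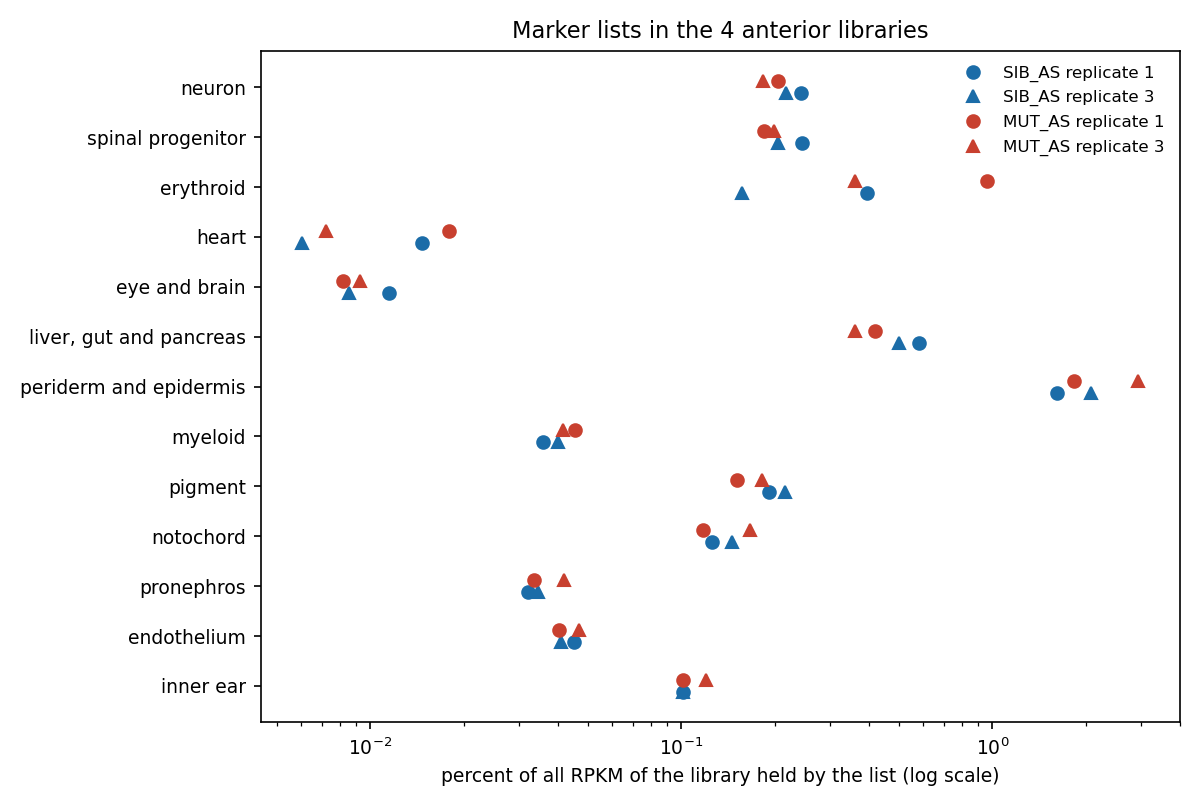
Percent of all RPKM of each anterior library held by 13 lists of markers of other cell types (log x axis), blue for SIB_AS and red for MUT_AS, circles for replicate 1 and triangles for replicate 3. The heart and erythroid lists are higher in replicate 1 than in replicate 3 of both genotypes, and the liver, gut and pancreas list is lower in both MUT_AS libraries.

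Outside these groups, the parathyroid hormone gene pth1b, which acts on calcium balance, had one of the larger differences that did not pass. It stood at 4.02 and 6.78 RPKM in MUT_AS and 1.22 and 1.46 RPKM in SIB_AS. The groups are well separated (log2 difference 1.42 ± 0.22, limma adjusted p = 0.0946). In posterior pieces it stood at 3.42 and 3.13 RPKM in MUT_PS and 1.03 and 0.944 RPKM in SIB_PS. In the vessel list 11 of 22 genes had a higher mean and 11 a lower one, and the water channel aqp1a.1 stood at 35.9 and 33.6 RPKM in MUT_AS and 21.9 and 18.9 RPKM in SIB_AS (log2 difference 0.74, limma adjusted p = 0.216).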

How the data were processed

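The deposited table lists RefSeq transcripts, each with a log2(RPKM + 1) value per library that the authors computed, per the file headers. The ratio columns that the authors deposited as fold changes were not used. The design text names RUM as the aligner and Zv9 (danRer7) as the genome. Of 14809 rows, 228 fill rows were dropped. The 10889 transcripts averaging 1 RPKM or more were fitted with limma 3.58.1 (R 4.3.3), all 8 libraries together, 1 mean per group, with trend and robust options. Called means a Benjamini-Hochberg adjusted p under 0.05. Tested on simulated data with the spread of each group, the fit recovered most of the changes put in but made false calls above its nominal rate. It shares 1 spread over groups whose spreads differ. The changes put in were larger than those of cthrc1a and zgc:86725 and fell on transcripts above the SIB_AS level of cldn11a. Recovery of smaller changes, or of changes in lower transcripts, was not tested. The table holds no counts, so read depth is known only from the lowest values. Groups come from titles. The members, the gene lists and the rule for named genes were chosen with earlier results of these data known. All called transcripts, foxc1a and foxc1b are named. The rule also selected uncalled ones of smallest p whose groups do not overlap (8 a direction, mean of at least 5 RPKM) and up to 3 such of each list. It selected the 6 a direction of largest difference from 100 RPKM as well. Not all of those selected are named in the text. Left out are, among others, dap1b, eef1a1l2, serpinc1, hbbe1.1, icn2, dynll1 and epcam. Further list members were named after their values were seen.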

Additional observations from a re-analysis of the deposited data

How the results depend on the processing

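Beside the 1 higher and 4 lower calls of the report, the fit gave 0 higher and 3 lower with no filter, the same with group weights, 1 and 2 at a mean of at least 5 RPKM, 1 and 3 with a pseudocount of 0.1, 0 and 4 with median scaling, and 0 and 0 with the 4 AS libraries alone. With 1 library left out, higher calls ran from 0 to 559 and lower calls from 2 to 546. The titles do not say whether equal numbers share a clutch. The difference between replicates 3 and 1 correlated across transcripts at r = 0.152 between MUT_AS and SIB_AS. Over all 6 pairs of groups r ran from -0.094 (MUT_AS and SIB_PS) to 0.522 (SIB_AS and SIB_PS), with 5 pairs over 0.1. These values cannot decide whether equal numbers share a clutch. A fit with the replicate block gave 1 higher and 6 lower calls, among them myhz1.2 (limma adjusted p = 0.0178). foxc1a, not called in any fit, changed sign to -0.033 with median scaling, and ran from -0.07 to 0.161 with a library left out, among these -0.07 without MUT_AS replicate 1 and -0.024 without SIB_AS replicate 3; the cause was not tested. For the called transcripts, the interaction passed the threshold in no fit that kept all libraries. With a library left out, its value ran from -2.417 to -1.932 for star, from -2.45 to -2.039 for cldn11a and from 0.764 to 1.104 for zgc:86725. Of 2969 recomputed values of the 188 transcripts selected for naming, 2868 kept direction and side of the threshold, 24 lost and 74 gained a call. Only 5 of these transcripts were called in the fit of the report, and the 24 losses all fell on them. For the others staying uncalled counts as kept, so the total says little about how stable the calls are. Depth limits transcripts under about 1 RPKM in MUT_AS replicate 3.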

Other observations

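In the list of kidney (pronephros) genes, 12 of 18 tested (66.7%, against 62.1% of all transcripts) had a higher mean in MUT_AS, and none was called. Of these 18, 8 lay above and 2 under both controls, against 27.0% and 11.7% of all transcripts, and 8 overlapped. The list also counts the parathyroid hormone gene pth1b, which is among those above both controls and has its largest difference. The tubule gene cdh17 lay above both controls, at 20.96 and 16.6 RPKM against 12.6 and 13.7 RPKM, and the transporter slc12a1 was at 6.67 and 9.3 RPKM against 4.38 and 6.46 RPKM. The factor wt1b stood at 2.05 and 2.63 RPKM in MUT_AS and 2.81 and 3.43 RPKM in SIB_AS, under both controls, and wt1a overlapped at 6.38 and 2.81 RPKM and 5.45 and 6.72 RPKM. These genes were chosen after their values were seen.

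Other transcripts with small p and no call included the arrestin relative arrdc3b, at 30.9 and 31.4 RPKM in MUT_AS and 18.4 and 15.8 RPKM in SIB_AS, and prtga, a relative of the netrin receptor dcc, at 8.91 and 7.104 RPKM and 3.32 and 3.895 RPKM. On the lower side, the pterin enzyme sprb stood at 6.12 and 5.31 RPKM against 12.5 and 11.8 RPKM. The pigment pterin gene gch2 stood at 166 and 174 RPKM against 254 and 291 RPKM. Of 15 pigment genes 6 (40.0%, against 62.1% of all transcripts) had a higher and 9 a lower mean. Neutrophil mpx stood at 2.02 and 3.97 RPKM against 5.06 and 9.52 RPKM, with both mutants under both controls. In the myeloid list it belongs to, 14 of 17 tested (82.4%, against 62.1% of all transcripts) had a higher mean in MUT_AS, and none was called. Of these 17, 4 lay above and 2 under both controls, against 27.0% and 11.7% of all transcripts.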
